A study of Mus musculus with 12 samples.

Results

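Scavenger receptors are the surface and lysosomal proteins with which phagocytes bind and take up oxidised lipoproteins, lipid-rich debris and other modified ligands. The genes described here were 10 named receptors of lipid-laden phagocytes, Cd36, Scarb1, Msr1, Marco, Colec12, Olr1, Stab1, Mrc1, Cd163 and Cd68, found by symbol among the 46078 genes of the count table, and all 10 were present. They were measured by RNA sequencing of white matter of the ventrolateral spinal cord, cut out by laser capture from C57Bl6 mice, in 12 libraries. By the study's account each was made from RNA pooled from 5 mice. The sources used here do not say whether the libraries of a group came from different mice, so the p-values below measure the spread between these libraries, which may be technical. The libraries, called pools here, made 4 groups of 3, young and middle-aged mice that were either naïve or injured. Young mice were 6 weeks and middle-aged mice 8 months old. Naïve mice had no injury, and injured mice had received lysolecithin, a detergent-like lipid that strips myelin, in the ventrolateral white matter 72 h earlier. No vehicle-injected group was analysed here, so the injection and lysolecithin cannot be told apart. The study had found several of these receptors altered between young and aged cultured microglia given myelin debris, with Cd36 lower in the aged cells. By its account aged cells came from mice older than the middle-aged mice here, so the tissue values below are no like comparison. The questions put to the tissue here were how each receptor stood in the lesion and whether it differed with age.

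In damaged white matter, microglia and macrophages that enter from the blood engulf myelin debris and fill with lipid droplets. Class B receptors (Cd36, Scarb1) bind oxidised lipoproteins and fatty acids or exchange cholesterol with lipoproteins. Class A receptors (Msr1, Marco, Colec12) bind modified lipoproteins, bacteria and sugars. Olr1 encodes the lectin-like receptor of oxidised low-density lipoprotein, Stab1 a large endocytic receptor of macrophages and sinusoidal endothelium, Mrc1 the mannose receptor, Cd163 the receptor of haptoglobin-haemoglobin complexes, and Cd68 a glycoprotein that sits mostly in lysosomes.

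The libraries held 9834447 to 12807437 counts. Values are CPM (counts scaled to a common library size), adjusted by the trimmed mean of M values (TMM), a correction for differences in composition between libraries. The pools of each group differed by more than counting error, with a chi-square per degree of freedom of 8.04 to 38.6 for pairs of pools of 1 group, so every pool was kept as a separate sample. Log2 CPM correlated across genes at r = 0.937 to 0.988 within a group. The summed level of 6 oligodendrocyte markers, the major cells of white matter, was 86589 to 101823 CPM in young naïve pools and 52942 to 60237 CPM in middle-aged naïve pools. After injury it was 18229 to 20232 CPM in young and 7920 to 12431 CPM in middle-aged pools. The 4 neuron markers summed to 680 to 1974 CPM in young naïve and 1165 to 1237 CPM in middle-aged naïve pools. In injured pools they summed to 274 to 479 CPM in young and 363 to 445 CPM in middle-aged mice. How much grey matter the pools held was not tested. The summed level of 7 pan-myeloid markers was 95.4 to 125 CPM, 146 to 193 CPM, 1205 to 1262 CPM and 1172 to 1493 CPM in young naïve, middle-aged naïve, young lesioned and middle-aged lesioned pools, with no marker at 0.

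On genome build GRCm38, Cd36 lay at chr5:17781690-17888801 and Scarb1 at chr5:125277087-125341094, both on the minus strand. Msr1 lay at chr8:39581685-39642673, Marco at chr1:120474538-120505024, Olr1 at chr6:129485244-129507165, Stab1 at chr14:31139013-31168641 and Cd68 at chr11:69664213-69666153, all on the minus strand. Cd163 at chr6:124304656-124330527 and Mrc1 at chr2:14229392-14332057 were on the plus strand, as was Colec12. Stab1 shared 112 exonic bases with Nt5dc2 on the opposite strand, and the strand setting of the counting was not given in the sources used here, so reads in those bases could not be assigned. No exon of the other 9 genes overlapped an exon of another gene.

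RefSeq entries of the bases around the start site, 250 upstream and 50 downstream on GRCm38.p6, were given for 7 of the 10 genes. For Cd36, which has 6 annotated transcripts that start at different bases, the entry lies 52905 bases downstream of the gene's 5′ end and so stands for an internal start site, and other start sites of Cd36 were not searched. The other 6 windows start within 22 bases of the annotated 5′ end. The sequences below are shown because they compare 3 receptors that rose with injury (Cd36, Olr1, Cd68) with the pair that did not pass the test or was not tested (Cd163, Marco). Capitals mark matches, on either strand, to the PU.1 core GAGGAA, bound by a master factor of myeloid cells, and to the AP-1 motif TGANTCA.
Cd36, chr5:17835847-17836146, minus strand: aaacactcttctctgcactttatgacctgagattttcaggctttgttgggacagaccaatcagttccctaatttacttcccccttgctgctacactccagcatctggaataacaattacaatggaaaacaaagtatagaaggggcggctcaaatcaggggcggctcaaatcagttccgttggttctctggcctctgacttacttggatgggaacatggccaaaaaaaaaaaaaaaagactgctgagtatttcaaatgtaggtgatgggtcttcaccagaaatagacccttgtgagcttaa
Olr1, chr6:129507116-129507415, minus strand: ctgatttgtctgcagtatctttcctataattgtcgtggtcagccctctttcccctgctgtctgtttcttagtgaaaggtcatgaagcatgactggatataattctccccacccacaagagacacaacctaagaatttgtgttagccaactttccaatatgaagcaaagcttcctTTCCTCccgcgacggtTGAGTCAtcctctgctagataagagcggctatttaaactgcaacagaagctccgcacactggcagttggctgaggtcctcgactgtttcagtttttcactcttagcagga
Cd68, chr11:69666121-69666420, minus strand: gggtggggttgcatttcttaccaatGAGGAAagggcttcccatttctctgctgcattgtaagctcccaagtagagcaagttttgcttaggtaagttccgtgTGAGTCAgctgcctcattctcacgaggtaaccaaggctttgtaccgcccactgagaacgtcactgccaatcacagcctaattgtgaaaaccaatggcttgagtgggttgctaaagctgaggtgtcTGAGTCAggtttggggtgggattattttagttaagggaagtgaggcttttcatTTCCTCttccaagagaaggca
Cd163, chr6:124304401-124304700, plus strand: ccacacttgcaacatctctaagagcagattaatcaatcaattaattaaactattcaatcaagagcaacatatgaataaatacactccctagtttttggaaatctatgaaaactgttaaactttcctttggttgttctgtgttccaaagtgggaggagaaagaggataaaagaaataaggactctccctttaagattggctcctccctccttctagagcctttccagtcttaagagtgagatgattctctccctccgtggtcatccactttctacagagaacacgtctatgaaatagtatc
Marco, chr1:120504975-120505274, minus strand: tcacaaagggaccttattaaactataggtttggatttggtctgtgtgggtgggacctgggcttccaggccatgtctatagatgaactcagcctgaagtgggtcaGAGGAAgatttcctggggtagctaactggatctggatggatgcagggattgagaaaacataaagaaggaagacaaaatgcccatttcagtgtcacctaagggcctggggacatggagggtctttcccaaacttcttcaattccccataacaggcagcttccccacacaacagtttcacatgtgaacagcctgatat
The PU.1 core occurred in 28.3% and the AP-1 motif in 7.81% of all 32851 RefSeq promoter windows of this length. Among the 7 receptors the PU.1 core was found in Olr1, Stab1, Marco, Mrc1 and Cd68, and the AP-1 motif in Olr1 and Cd68. In Cd68 the AP-1 matches began 149 and 24 bases before the start site, and in Olr1 the match began 60 bases before it. The Cd163 window and this internal Cd36 window had no match to either, and none of the 7 windows matched the antioxidant response element TGACNNNGC, the direct repeat 1 element, which nuclear receptors such as PPARγ bind, or the TATA box TATAAA. A match is a string of letters and not a shown binding site. The class A genes Msr1 and Colec12 and the class B gene Scarb1 had no entry.

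Lysolecithin injury raised 8 of the 9 receptors that could be tested in young mice, and the same count in middle-aged mice, with none lower. Of these 8, Olr1 passed the filter on low counts through its injured pools alone, so its test could hardly end otherwise. Marco was too low in every group to be tested. Cd36 and Msr1 went from under 3 CPM to above 240 CPM. The share of all 15866 genes tested that was called higher was 28.3% in young and 29.2% in middle-aged mice, and the share called lower was 26.3% and 29.3%. The median log2 fold change of the 9 receptors was 5.86 in young and 4.77 in middle-aged mice, against 0.00064 and -0.032 over all genes, and the young median was 3.75 with Olr1, which had no count in young naïve pools, placed at its lower bound. The middle-aged median was the fitted value of Olr1 itself. That value rested on 2 naïve counts and ran from 4.17 to 7.55 when 1 pool was left out, so the medians of the ages are not compared. The test was edgeR's quasi-likelihood test with Benjamini-Hochberg adjustment over all genes tested. In this bulk tissue, fewer or more cells of a type and less or more RNA per cell cannot be told apart. The pools of injured and naïve mice did not overlap for 8 of the 10 receptors at either age, all 8 higher, where 35% of all genes in young and 31.5% in middle-aged mice had injured pools wholly above naïve pools.

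**Figure D1:**
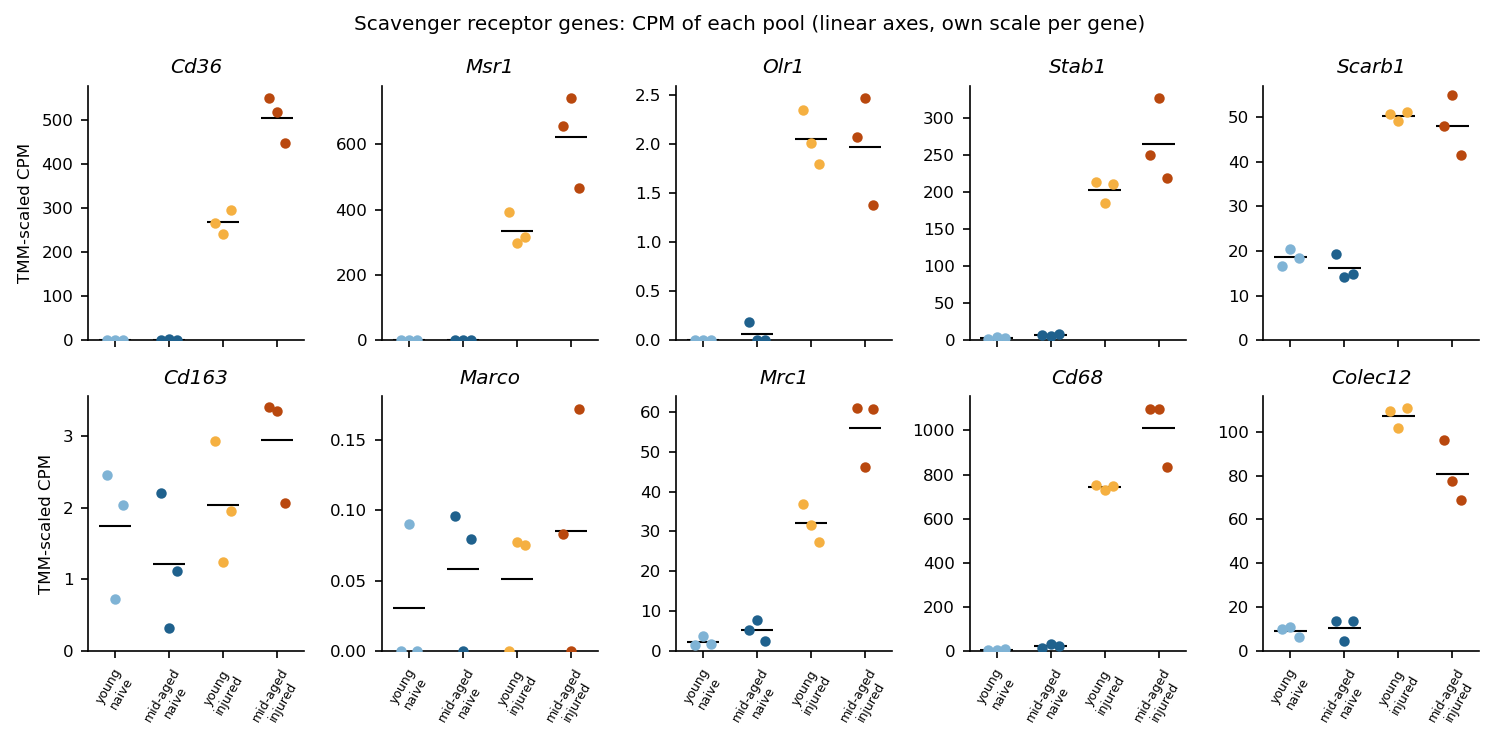
Level of each receptor gene in each of the 12 pools (TMM-scaled CPM, linear axes from 0 with a scale of their own for each gene, 3 pools a group; points are pools and bars mark the group means). Cd36 and Msr1 sit below 3 CPM in every naïve pool and above 240 CPM in every injured pool, while Cd163 stays between 0.314 and 3.40 CPM in all 12.

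Cd36, the class B receptor of oxidised lipoproteins and long-chain fatty acids, stood at 0.728, 0.634 and 0.644 CPM in the young naïve pools and at 1.73, 2.20 and 1.20 CPM in the middle-aged naïve pools. It reached 266, 241 and 296 CPM in the young injured pools and 550, 519 and 449 CPM in the middle-aged injured pools. Every injured pool lay far above every naïve pool, and the middle-aged injured pools lay wholly above the young injured pools. The log2 fold change of injury was 8.62 (SE 0.21, adjusted p = 3.95e-12) in young and 8.23 (SE 0.19, adjusted p = 4.29e-12) in middle-aged mice. Only 0.246% of all genes in young and 0.277% in middle-aged mice had a higher fold change.

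Scarb1, the other class B receptor, which exchanges cholesteryl esters with high-density lipoprotein, was already well expressed without injury. It stood at 16.7, 20.6 and 18.4 CPM in young naïve pools and 19.4, 14.1 and 14.9 CPM in middle-aged naïve pools. With injury it stood at 50.6, 49.0 and 51.0 CPM in young pools and 47.9, 54.9 and 41.4 CPM in middle-aged pools. The rise was small beside that of Cd36, with a log2 fold change of 1.44 (SE 0.16, adjusted p = 3.21e-06) in young and 1.57 (SE 0.16, adjusted p = 1.21e-06) in middle-aged mice, and the ages overlapped in both states.

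Msr1, the class A receptor of acetylated and oxidised lipoproteins, stood at 0.364, 0.543 and 0.107 CPM in young naïve pools and 1.92, 1.99 and 2.80 CPM in middle-aged naïve pools. It stood at 394, 299 and 315 CPM in young injured pools and at 656, 742 and 467 CPM in middle-aged injured pools. Its log2 fold changes of 9.86 (SE 0.32, adjusted p = 3.52e-11) in young and 8.09 (SE 0.26, adjusted p = 3.64e-11) in middle-aged mice were exceeded by 0.101% and 0.296% of all genes, respectively.

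Colec12, the collectin-type class A receptor known from endothelium and other non-myeloid cells, stood at 9.83, 11.1 and 6.44 CPM in young naïve pools and 13.6, 4.30 and 13.8 CPM in middle-aged naïve pools. It stood at 109, 102 and 111 CPM in young injured pools and 96.1, 77.8 and 69.0 CPM in middle-aged injured pools. It was the only receptor whose middle-aged injured pools all lay below the young injured pools. The log2 fold change of injury was 3.54 (SE 0.32, adjusted p = 4.35e-07) in young and 2.92 (SE 0.31, adjusted p = 1.98e-06) in middle-aged mice. The summed level of 5 fibroblast markers was 62.4 to 79.5 CPM in young naïve, 64.0 to 104 CPM in middle-aged naïve, 903 to 1416 CPM in young injured and 401 to 819 CPM in middle-aged injured pools, and its part in the Colec12 result was not tested. The summed level of 6 endothelial markers was 152 to 191 CPM, 203 to 256 CPM, 172 to 230 CPM and 239 to 268 CPM in the same order. With injury 2 of these 6 were called higher and 1 lower at each age. In young mice these were Cdh5 (log2 fold change 1.94), Pecam1 (1.06) and Ly6c1 (-0.50). Their part in the Colec12 result was not tested either.

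Marco, the class A receptor of alveolar and marginal zone macrophages, had 0 to 2 counts in each of the 12 pools and was too low to test. The exact 95% interval of the highest pool, a middle-aged injured pool with 2 counts, ran from 0.0214 to 0.639 CPM by library total, and the other pools had lower upper limits.

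Olr1 had no count in any young naïve pool, and 0.192, 0 and 0 CPM in the middle-aged naïve pools. It stood at 2.35, 2.01 and 1.81 CPM in young injured pools, which were 32, 26 and 24 counts, and at 2.07, 2.47 and 1.38 CPM in middle-aged injured pools, which were 25, 31 and 16 counts. All injured pools thus lay above all naïve pools, at a low level. In young mice the rise was at least 7.11-fold against a floor of 3 counts per pool. In middle-aged mice it was 32.3-fold by summed counts, with an exact 95% interval of 8.62 to 272 from 72 against 2 counts. Olr1 passed the filter on low counts through its injured pools alone, so no p-value of injury is given for it. Such intervals cover counting error only, and the RNA was amplified before sequencing.

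Stab1, an endocytic receptor that clears modified lipoproteins and matrix fragments, stood at 2.46, 4.62 and 3.44 CPM in young naïve pools and 7.19, 5.66 and 9.03 CPM in middle-aged naïve pools. It stood at 214, 186 and 211 CPM in young injured pools and 251, 327 and 220 CPM in middle-aged injured pools. The 4 groups did not overlap in this order. The log2 fold change of injury was 5.86 (SE 0.24, adjusted p = 2.40e-10) in young and 5.17 (SE 0.23, adjusted p = 3.49e-10) in middle-aged mice.

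Mrc1, the mannose receptor and a common marker of macrophages at the borders of the nervous system, stood at 1.46, 3.80 and 1.83 CPM in young naïve pools and 5.37, 7.86 and 2.40 CPM in middle-aged naïve pools. It stood at 36.9, 31.7 and 27.5 CPM in young injured pools and 60.9, 46.3 and 60.9 CPM in middle-aged injured pools. The ages overlapped in naïve but not in injured tissue. The log2 fold change of injury was 3.75 (SE 0.38, adjusted p = 1.35e-06) in young and 3.45 (SE 0.36, adjusted p = 1.33e-06) in middle-aged mice. The summed level of 6 border-associated macrophage markers was 2.63 to 3.28 CPM in young naïve and 5.11 to 9.01 CPM in middle-aged naïve pools. It was 230 to 268 CPM in young injured and 235 to 264 CPM in middle-aged injured pools. Cbr2 was at 0 in both naïve groups, and Cd209f in middle-aged naïve and young injured pools. F13a1 alone had means of 222 and 215 CPM in young and middle-aged injured pools, most of the injured sums. All 5 of these markers that could be tested rose with injury at both ages, and their part in the Mrc1 and Stab1 results was not tested.

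Cd163, the haemoglobin scavenger receptor, did not follow the others. It stood at 2.46, 0.724 and 2.04 CPM in young naïve pools and 2.21, 0.314 and 1.12 CPM in middle-aged naïve pools. It stood at 2.93, 1.24 and 1.96 CPM in young injured pools and 3.40, 3.35 and 2.07 CPM in middle-aged injured pools. Naïve and injured pools overlapped at both ages, on 3 to 42 counts a pool. The log2 fold change of injury was 0.24 (SE 0.57, adjusted p = 0.755) in young and 1.26 (SE 0.58, adjusted p = 0.0774) in middle-aged mice. Neither passed the threshold of 0.05. The middle-aged value passed it in 3 alternative settings, among them without middle-aged naïve replicate 1.

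Cd68, the lysosomal glycoprotein that marks phagocytes, stood at 4.37, 5.98 and 8.48 CPM in young naïve pools and 11.4, 31.5 and 24.3 CPM in middle-aged naïve pools. It stood at 751, 729 and 746 CPM in young injured pools and 1099.7, 1097 and 836 CPM in middle-aged injured pools. All 4 groups were apart. The log2 fold change of injury was 6.90 (SE 0.34, adjusted p = 1.08e-09) in young and 5.50 (SE 0.31, adjusted p = 3.50e-09) in middle-aged mice.

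**Figure D2:**
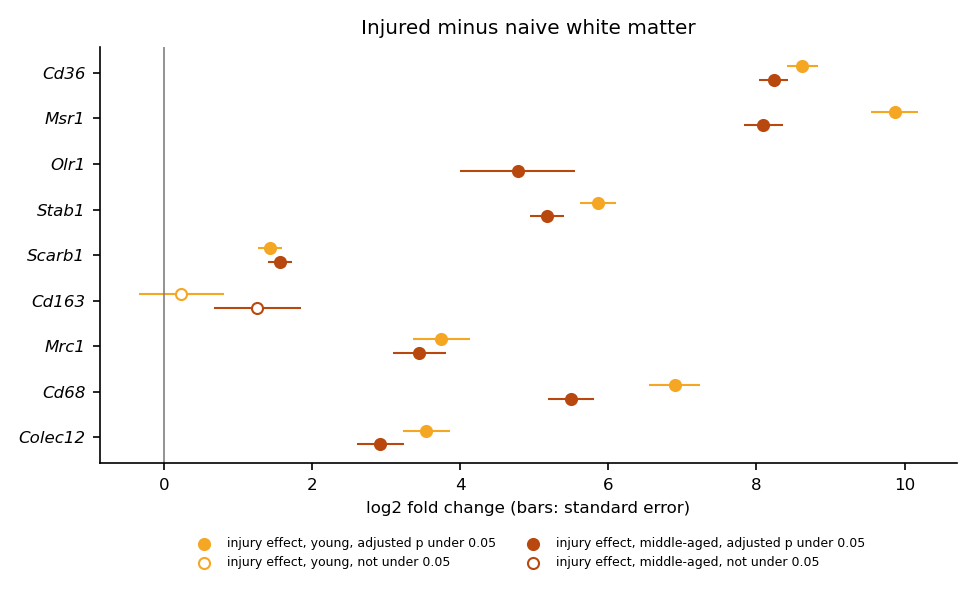
Log2 fold change, injured minus naïve, of the 9 receptor genes that could be tested in young and middle-aged mice (points, with bars of 1 standard error; filled points have an adjusted p under 0.05). Young Olr1 is not drawn because all young naïve pools had no count, and its middle-aged point rests on 2 naïve counts. Msr1 (9.86 and 8.09) and Cd36 (8.62 and 8.23) lie farthest to the right, Scarb1 (1.44 and 1.57) is the lowest of the filled points, and both points of Cd163 are open.

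Between genes, levels were compared as CPM per kb of exon. The length was the union of exons of all annotated transcripts, such as 3590 bases for Cd36 and 6344 for Msr1. Cd68 had the highest level per kb in every group and made up 52.5% (young) and 75.7% (middle-aged) of the sum of the 10 receptors in naïve tissue and 77.5% and 73.5% of it in injured tissue. In young naïve tissue Scarb1 (2.18 ± 0.225 CPM per kb, SD, n = 3) and Colec12 (1.05 ± 0.278) came next, and Cd36 was the seventh (0.186 ± 0.0144). In injured tissue Cd36 and Msr1 followed Cd68, at 74.6 ± 7.66 and 53.0 ± 8.04 CPM per kb in young and 141 ± 14.4 and 98.0 ± 22.1 CPM per kb in middle-aged mice. Stab1 came next at both ages, with 19.8 ± 1.53 and 25.8 ± 5.39 CPM per kb. The order of Cd36 and Msr1 depends on the length. In CPM, Msr1 stood above Cd36 in injured tissue, at 336 against 268 in young and 622 against 506 in middle-aged mice.

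The order of the group means fell into few patterns. Cd36, Msr1, Stab1 and Cd68 were highest in middle-aged injured, then young injured, then middle-aged naïve and lowest in young naïve pools, with no overlap between neighbours. Mrc1 had the same order, but the naïve groups overlapped. Colec12 was highest in young injured, then middle-aged injured pools, with overlapping naïve groups. For Scarb1 and Olr1 the injured groups overlapped each other and the naïve groups overlapped each other, and for Cd163 and Marco neighbouring groups in the order overlapped throughout.

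Each receptor was also set against the pan-myeloid markers (Ptprc, Itgam, Csf1r, Aif1, Tyrobp, Fcer1g, Laptm5), as the log2 CPM of the receptor minus the mean log2 CPM of the markers in the same pool. All 7 markers rose with injury at both ages, and their mean log2 CPM was 3.92 higher in injured than in naïve young tissue and 3.22 higher in middle-aged tissue. Msr1 rose beyond that by 5.54 and 4.78, Cd36 by 4.39 and 4.88, Cd68 by 2.98 and 2.37 and Stab1 by 1.91 and 1.94 on the log2 scale, in young and middle-aged mice respectively. For these 4 genes the injured pools lay wholly above the naïve pools. The young naïve pools held 1 to 6 counts of Msr1 and 6 to 8 of Cd36, so the size of these values depends on the prior count. Mrc1 (-0.15 and 0.30) and Colec12 (-0.36 and -0.14) overlapped between injured and naïve pools on this measure. Scarb1 (-2.49 and -1.65) and Cd163 (-3.64 and -1.81) lay lower in injured pools, Cd163 on few counts. These values are descriptions, and they carry no test. They depend on the reference, since Csf1r alone rose by log2 fold changes of 2.08 and 1.84, less than Mrc1 and Colec12 did. With Csf1r alone as reference or a smaller prior count, 46 of 80 recomputed group means of this measure moved beyond their SD. Markers of cells from the blood rose too, with a summed level of 6 monocyte-derived cell markers of 31.1 to 45.9 CPM in young naïve pools, where Ccr2, Plac8 and Chil3 were at 0 in every pool, 38.2 to 79.1 CPM in middle-aged naïve pools, with Plac8 at 0, 1028 to 1303 CPM in young injured pools and 1126 to 1234 CPM in middle-aged injured pools. Fn1, which fibroblasts also make, accounted for most of these sums, and the other 5 markers summed to 0.0905 to 0.637 CPM, 0.419 to 2.11 CPM, 76.7 to 117 CPM and 170 to 212 CPM in the same order. The 6 homeostatic microglia markers summed to 400 to 532 CPM, 620 to 861 CPM, 3523 to 3925 CPM and 3076 to 4283 CPM in the same order. The 4 neutrophil markers summed to 0 to 0.107 CPM, 0 to 0.320 CPM, 1.05 to 3.08 CPM and 1.83 to 2.24 CPM. Which cells carried each receptor was not tested.

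**Figure D3:**
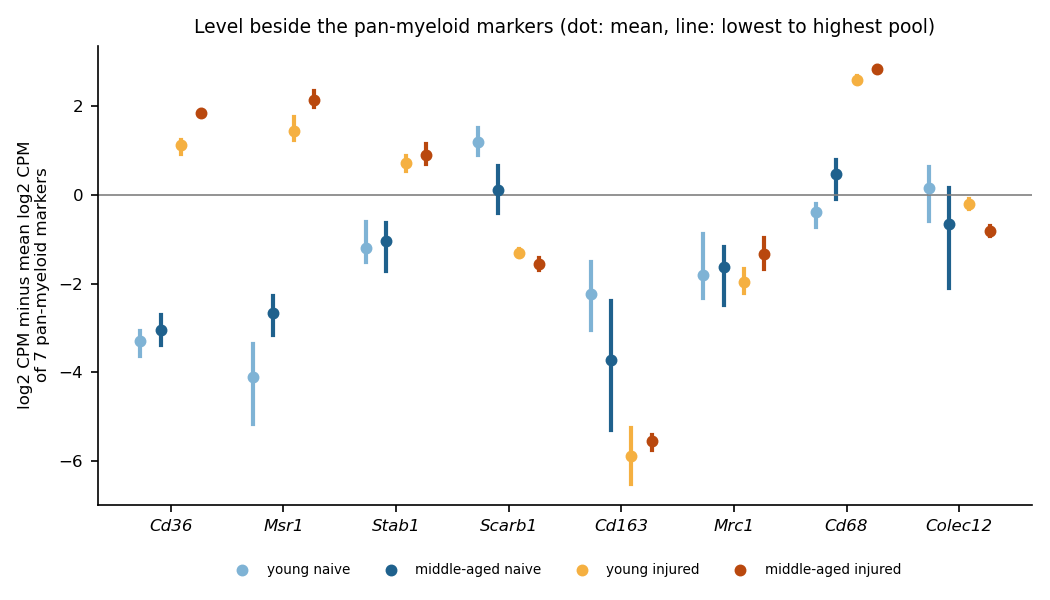
Log2 level of the receptors relative to the mean of 7 pan-myeloid markers by group (dots mark the mean of 3 pools and lines run from the lowest to the highest pool; Olr1 and Marco are left out because their values depend on the prior count). Cd36, Msr1, Cd68 and Stab1 lie higher in injured than in naïve pools at both ages, Scarb1 and Cd163 lie lower, and Mrc1 and Colec12 overlap.

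Genes next to the receptors were counted from lists of the pathway. Of 20 other scavenger receptor genes, 19 could be tested (Ager could not), and 16 rose, 1 fell and 2 were not called in young mice, with a median log2 fold change of 2.22. In middle-aged mice 14 rose, 1 fell and 4 were not called, with a median of 2.21. Cd5l, a secreted macrophage protein of the scavenger receptor cysteine-rich family, had no count in young naïve pools and stood at 134 ± 7.85 CPM (SD, n = 3) in young injured pools, at least 464-fold higher against the floor of 3 counts per pool, with 97.4 ± 39.7 CPM in middle-aged injured pools. Cd209a, a lectin of dendritic cells, had no count in young naïve pools and stood at 1.48 ± 0.381 CPM in young injured pools, at least 5.13-fold higher. Clec7a, the β-glucan receptor Dectin-1, had log2 fold changes of 6.46 (SE 0.28) in young and 4.85 (SE 0.24) in middle-aged mice. Megf10, an engulfment receptor of astrocytes, was the gene of this list that fell, from 90.3 ± 15.3 to 31.9 ± 5.17 CPM in young mice, by 1.50 on the log2 scale (SE 0.20, adjusted p = 2.15e-05).

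**Figure D4:**
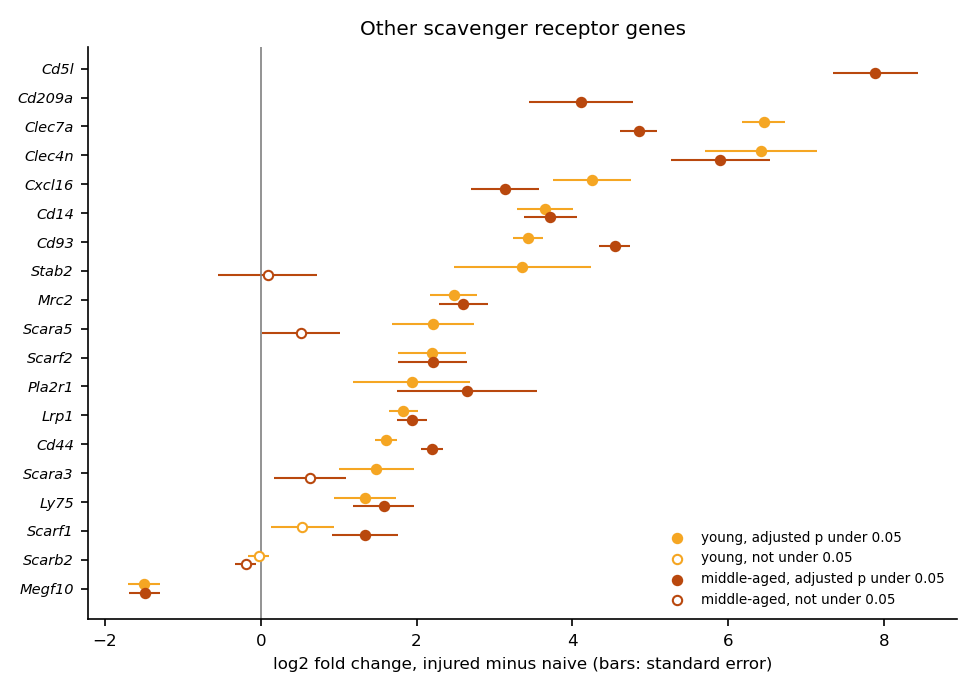
Log2 fold change, injured minus naïve, of the 19 other scavenger receptor genes tested (points, with bars of 1 standard error, young and middle-aged; filled points have an adjusted p under 0.05). Young Cd5l and Cd209a are not drawn because all young naïve pools had no count. Most points lie right of 0, Scarb2 (-0.03 and -0.19) is open at both ages and Megf10 (-1.50 and -1.49) is filled on the left.

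Of 18 genes for partners of CD36 and lipid handling, 16 rose, 1 fell and 1 was not called at each age, with medians of 2.79 in young and 2.78 in middle-aged mice. Fabp4, a fatty acid carrier of fat cells and macrophages, had no count in young naïve pools and 29.9 ± 0.498 CPM in young injured pools, at least 104-fold higher. Tlr6, which can form a receptor complex with CD36, had log2 fold changes of 5.26 (SE 0.58) in young and 4.10 (SE 0.49) in middle-aged mice. Plin2, the coat protein of lipid droplets, rose by 4.82 (SE 0.25) and 4.94 (SE 0.25). Fyn, a kinase that signals below CD36 and is also abundant in oligodendrocytes, fell by 0.83 on the log2 scale in young (SE 0.12) and by 0.47 in middle-aged mice (SE 0.12).

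Of 7 endocytic and lysosomal genes chosen to stand beside Cd68, 6 rose in young and 7 in middle-aged mice. Gpnmb, a glycoprotein of lipid-laden macrophages, had log2 fold changes of 9.97 (SE 0.67) and 7.59 (SE 0.59), the cathepsin Ctsd 4.71 (SE 0.21) and 4.16 (SE 0.21), and Ctsb 4.08 (SE 0.15) and 4.08 (SE 0.15). Of 6 haemoglobin clearance genes chosen to stand beside Cd163, 5 could be tested (Hpx could not), and 3 rose and 1 fell at each age. Hmox1, which breaks down haem, rose by log2 fold changes of 6.78 (SE 0.59) in young and 5.50 (SE 0.53) in middle-aged mice, although its young injured pools ranged from 62.2 to 256 CPM. Hp, which encodes haptoglobin, the ligand carrier of Cd163, rose from 1 to 38 summed counts in young mice, a ratio of 29.9 with an exact 95% interval of 5.05 to 1211. The ferritin light chain Ftl1 rose by 3.79 (SE 0.18) and 3.16 (SE 0.18), while the heavy chain Fth1 fell by 1.15 (SE 0.14) and by 1.37 (SE 0.14) on the log2 scale. Both ferritin genes have near-identical pseudogenes, so their counts are uncertain.

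In tissue without injury, 4 receptors stood higher in the middle-aged mice and none stood lower. Of all genes, 2.02% were called higher and 1.78% lower in this comparison. Msr1 had a log2 difference, middle-aged minus young, of 2.66 (SE 0.45, adjusted p = 0.00521), Cd68 of 1.85 (SE 0.31, adjusted p = 0.00486), Cd36 of 1.31 (SE 0.30, adjusted p = 0.0299) and Stab1 of 1.07 (SE 0.25, adjusted p = 0.0316). These 4 genes were also those whose middle-aged naïve pools all lay above the young naïve pools, as was so for 7.78% of all genes. The levels behind them were low, with means of 0.669 ± 0.0516 against 1.71 ± 0.501 CPM for Cd36 and 0.338 ± 0.219 against 2.24 ± 0.488 CPM for Msr1 (SD, n = 3). Mrc1 had a difference of 1.10 (SE 0.40, adjusted p = 0.154), Colec12 of 0.22 (SE 0.32, adjusted p = 0.773), Scarb1 of -0.20 (SE 0.16, adjusted p = 0.547) and Cd163 of -0.50 (SE 0.60, adjusted p = 0.703). Olr1 had 2 counts in 1 middle-aged naïve pool and none elsewhere in naïve tissue, and no difference is given for it (adjusted p = 0.398). The median of the 8 receptors above the floor of 3 counts was 1.09, against 0.014 over all genes.

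Other values moved with age in naïve tissue as well. Of the 7 pan-myeloid markers 5 were higher in middle-aged naïve tissue, with a mean log2 difference of 0.88, and 3 of the 6 oligodendrocyte markers were lower. Relative to the pan-myeloid mean, Msr1 stayed 1.45 and Cd68 0.86 higher in middle-aged naïve pools without overlap, whereas Cd36 (0.25) and Stab1 (0.16) overlapped. On this measure Scarb1 (-1.09) was lower in middle-aged naïve pools without overlap, and Mrc1 (0.17), Cd163 (-1.48) and Colec12 (-0.81) overlapped. The Msr1 value rested on 1 to 6 counts in each young naïve pool. The part of either cell type in the age differences was not tested. The 4 calls rested on the spread shared by all 12 pools. None passed with only the 6 naïve pools in the fit, where 0.181% of all genes were called higher, and 2 were left without young naïve replicate 1 or without young naïve replicate 3. In the other direction, Mrc1 passed with DESeq2 (adjusted p = 0.0454), without a filter on low counts (adjusted p = 0.0173) and without middle-aged naïve replicate 3 (adjusted p = 0.0297). Of the other scavenger receptors, Clec7a (2.28, SE 0.28, adjusted p = 7.84e-04) and Stab2 were higher in middle-aged naïve tissue, Stab2 on 4 to 53 counts a pool, and the other 17 genes tested were not called. Of the 18 genes for partners of CD36 and lipid handling 2 were higher and 1 lower, of the 7 endocytic and lysosomal genes 2 were higher, and of the 5 haemoglobin clearance genes tested 1 was higher.

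In injured tissue, Cd36 and Msr1 stood higher in the middle-aged mice and no receptor stood lower, where 0.24% of all genes were called higher and 0.908% lower. Cd36 had a log2 difference of 0.92 (SE 0.13, adjusted p = 0.00401), from 268 ± 27.5 to 506 ± 51.6 CPM, and Msr1 of 0.89 (SE 0.18, adjusted p = 0.0270), from 336 ± 51.0 to 622 ± 140 CPM (SD, n = 3). In the ranking of all genes by this difference, 1.48% lay above Cd36 and 1.63% above Msr1. The pools of the age groups did not overlap for 6 receptors. Cd36, Msr1, Stab1, Mrc1 and Cd68 lay higher in middle-aged pools, as did 11.1% of all genes, and Colec12 lay lower, as did 12.2%. Without passing the test, Mrc1 had a difference of 0.81 (SE 0.31, adjusted p = 0.339), Cd68 of 0.45 (SE 0.25, adjusted p = 0.679), Stab1 of 0.38 (SE 0.18, adjusted p = 0.527) and Colec12 of -0.41 (SE 0.28, adjusted p = 0.801). Cd163 (0.52, SE 0.55), Olr1 (-0.06, SE 0.50) and Scarb1 (-0.06, SE 0.15) had adjusted p-values of 0.946, 0.997 and 0.995. The median of the 9 receptors was 0.45 against 0.0020 over all genes.

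**Figure D5:**
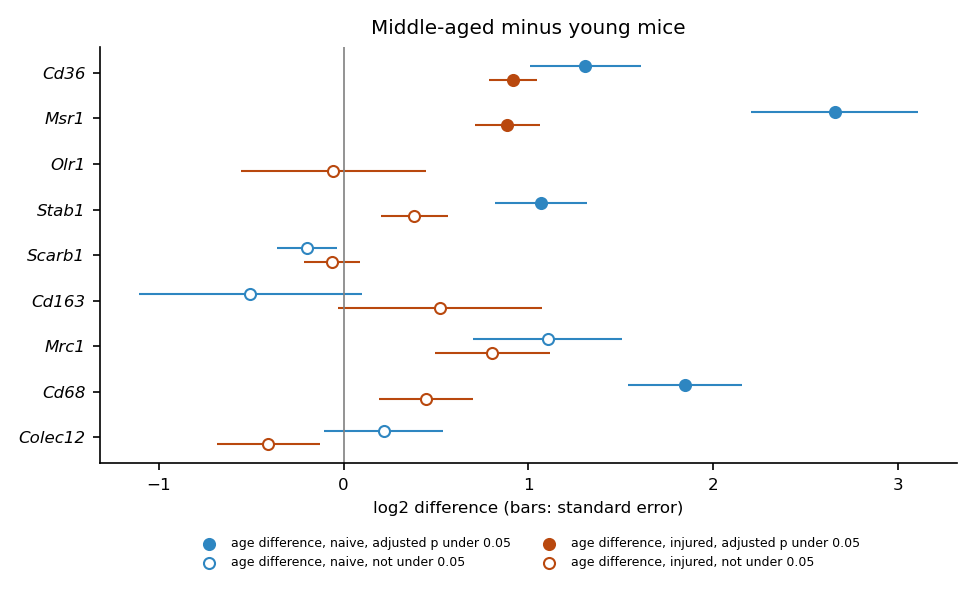
Log2 difference, middle-aged minus young, of the 9 receptor genes tested, in naïve and in injured tissue (points, with bars of 1 standard error; filled points have an adjusted p under 0.05). Olr1 is drawn for injured tissue alone, since naïve pools held at most 2 of its counts. Cd36 (1.31 and 0.92) and Msr1 (2.66 and 0.89) are filled in both, Stab1 and Cd68 in naïve tissue alone, and the difference between the states passed edgeR's test for no receptor, while DESeq2 called Cd68 and edgeR without a filter on low counts called Msr1 and Cd68.

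None of the 7 pan-myeloid markers was called with age in injured tissue, where their mean log2 CPM was 0.18 higher in middle-aged mice, and 5 of the 6 oligodendrocyte markers were lower. The 6 monocyte-derived cell markers had a median log2 difference of 1.06, about that of Cd36 and Msr1, and 0 were called. Ccr2, the chemokine receptor of inflammatory monocytes, stood at 64.6 ± 15.8 CPM in young and 130 ± 23.4 CPM in middle-aged injured pools (SD, n = 3), a log2 difference of 1.01 (SE 0.25, adjusted p = 0.0821). Chil3 stood at 21.9 ± 2.73 and 36.6 ± 4.21 CPM, Plac8 at 5.14 ± 0.936 and 11.0 ± 4.71 CPM, and Fn1 at 1043 ± 149 and 974 ± 46.8 CPM. By microscopy, the study counted fewer peripheral leukocytes in middle-aged than in young lesions at 72 h, with no difference in microglia. Those were cell counts, and the ages the study gives for its lesion histology differ from those here. The part of monocyte-derived cells in the Cd36 and Msr1 differences was not tested. Relative to the pan-myeloid mean, Cd36 was 0.74, Msr1 0.69 and Cd68 0.25 higher in middle-aged injured pools without overlap, Stab1 (0.19) and Mrc1 (0.62) overlapped, and Colec12 (-0.60) and Scarb1 (-0.25) were lower. The part of lesion size or composition was not tested. The Cd36 call held in every alternative setting run, while that of Msr1 was lost when any of 4 pools was left out (young injured replicate 2 or 3, middle-aged injured replicate 1 or 2). With only the 6 injured pools in the fit, Mrc1 and Cd68 were called as well, where 2.17% of all genes were called higher. Of the genes beside the receptors, Fabp4 (0.85, SE 0.18, adjusted p = 0.0448) and the cathepsin Ctsl (0.65, SE 0.14, adjusted p = 0.0448) were higher and Fyn was lower (-0.55, SE 0.12, adjusted p = 0.0381) in middle-aged injured tissue, and none of the 19 other scavenger receptors was called.

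Whether injury raised the receptors by a different factor at the ages was tested as the difference of the log2 fold changes, middle-aged minus young. By edgeR's quasi-likelihood test 0 of the 9 passed, and 0.0819% of all genes were called lower and 0.0567% higher. Without passing, Msr1 (-1.77, SE 0.50, adjusted p = 0.201), Cd68 (-1.40, SE 0.40, adjusted p = 0.201) and Stab1 (-0.68, SE 0.31, adjusted p = 0.482) had a smaller fold change in middle-aged mice. Scarb1 (0.14, SE 0.22, adjusted p = 0.901) and Cd163 (1.03, SE 0.82, adjusted p = 0.742) had a larger fold change there. DESeq2 called Cd68 (-1.38, adjusted p = 0.0449), where it called 0.889% of all genes lower, and edgeR without a filter on low counts called Msr1 and Cd68, where 0.913% of all genes were called lower. Without middle-aged naïve replicate 1, Cd68 passed at -1.71 (adjusted p = 0.0255). For Msr1, Cd68 and Stab1 the comparison shares its naïve pools with the age difference given above, in which they were higher in middle-aged mice.

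The genes with the pattern most like a receptor were ranked by Pearson r of log2 CPM over the 12 pools, which mostly follow the step from naïve to injured tissue. For Cd36 they were Mdfic (r = 0.998), Fabp4 (0.998) and Grn (0.997), and 1496 of 15808 genes had r above 0.95. For Mrc1 they were Pdpn (0.993), Sat1 (0.988) and Myd88 (0.988), with 580 genes above 0.95. For Scarb1 they were 5430427O19Rik (0.992), Ctns (0.991) and Ect2 (0.990), with 1034 genes above 0.95.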

How the data were processed

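The authors checked reads with FastQC 0.11.4, aligned them to GRCm38 by TopHat 2.0.10, which ran bowtie 1.1.2, and deposited raw counts of reads per gene from featureCounts. RNA had been amplified when the libraries were built. The annotation release, the strand setting and the handling of reads shared between genes were not given in the sources used here.

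Groups came from the labels, ages and times from the study's methods, and pool sizes from a figure caption of the study. Counts were fitted in R 4.3.3 with edgeR 4.0.16 (TMM, filterByExpr, glmQLFit, glmQLFTest), with 1 coefficient per group over 12 pools and Benjamini-Hochberg adjustment over 15866 genes at a threshold of 0.05. Standard errors were obtained from F (log2 fold change over root F). The study's own tool, DESeq2 (1.42.0 here), was an alternative. Log2 CPM used a prior count of 2, and intervals are Clopper-Pearson intervals at 95%. Symbols were found for 45143 of the 46078 gene identifiers, and exon lengths are those of GENCODE on GRCm38.

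The receptors, the other gene lists and the markers were chosen with earlier results of these data known. All 10 receptors were described. Of each other list, named genes were those past the threshold with the highest or lowest injury fold change in young mice, up to 3 each way, and those past it for age in injured tissue or for the difference of injury effects. The naïve values of Stab2 and Clec7a, and Scarb2, Hpx and Ager, were named in addition, after their values were seen.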

Additional observations from a re-analysis of the deposited data

How the results depend on the processing

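The 8 rises with injury were called in young mice in every setting run, and 8 to 9 were called in middle-aged mice, where leaving out 1 pool gave 8 to 9 and Cd163 was the gene added. With only the pools compared in the fit, the receptors called higher with age numbered 0 in naïve and 4 in injured tissue. Leaving out 1 pool at a time gave 2 to 4 in naïve tissue and 1 to 2 in injured tissue. Of the 16222 to 16301 genes tested in these fits, 136 to 484 and 6 to 120 were called higher. For the difference of the injury effects, 2 receptors were called lower without a filter on low counts and 1 with DESeq2. When 1 pool was left out, 0 to 1 receptors and 2 to 35 of all genes were called lower. The causes were not tested. Leaving out 1 pool also turned the direction of 5 receptors in 1 comparison each, none of them called. These were Cd163 in the injury effect of young mice (-0.14 to 0.58), Colec12 in the age difference in naïve tissue (-0.028 to 0.57), Olr1 (-0.24 to 0.16) and Scarb1 (-0.16 to 0.048) in that in injured tissue, and Mrc1 in the difference of the injury effects (-0.84 to 0.13). The Cd36 call with age in naïve tissue was lost in 6 settings and that of Stab1 in 4, and Mrc1 was called in 3.

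With the replicate number as a replicate block, the receptors called higher numbered 8 for injury in young mice, 9 for injury in middle-aged mice (Cd163 added, 1.49, adjusted p = 0.0243), 4 for age in naïve and 2 for age in injured tissue, and 0 were called for the difference of the injury effects. Of all 15866 genes, 4473, 4622, 280 and 32 were called higher in the same order, and 11 were called higher and 20 lower for that difference. Same-numbered pools did not deviate together (r of -0.113 to 0.153 over 12 pairs, 2 above 0.1), so the block was not used. Scaling by library totals alone moved the median of all genes in young injury by 0.196 and split the calls into 5377 higher and 3236 lower, against 4483 and 4175. Over all genes, the age difference in naïve tissue gave 321 higher and 282 lower, 26 and 45 with only the pools compared, 612 and 502 with DESeq2, and 717 and 436 without a filter. In injured tissue it gave 38 and 144, then 327 and 494, 142 and 308, and 121 and 316. The difference of the injury effects gave 9 and 13, 97 and 141 with DESeq2, and 81 and 248 without a filter. With 3 pools a group an exact permutation test of 1 gene cannot go below p = 0.1. The depth left Olr1, Cd163 and Marco at 0 to 42 counts a pool.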
